A study of Homo sapiens with 14 samples.

Results

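The genes described here are those named as eukaryotic initiation or elongation factors of translation, with kinases and methyltransferases that act on these factors and other proteins that share the names. They were chosen by symbol, as every gene of the deposited count tables whose name starts with EIF or EEF, holds no hyphen and does not end in P and a number. This gave 64 genes of 16604 in either table, 63 of 16405 in the table of the knockdown experiment and 61 of 12325 in that of the RB98# experiment, with 60 in both. The rule left out 28 other EIF and EEF names, of which 3 hold a hyphen, 22 end in P and a number as pseudogenes do, and 3 are the 4E-BP genes EIF4EBP1, EIF4EBP2 and EIF4EBP3, which are given with the other genes of the pathway. EEF1G was in the RB98# table, and EEF1AKNMT, EIF2S3B and EIF5AL1 were in the knockdown table, and their values in the other experiment were not analysed here.

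All libraries came from Kasumi-1, an established human acute myeloid leukemia line with the RUNX1-RUNX1T1 fusion. In the knockdown experiment, lentivirus was left on the cells for 48 h, with either a control hairpin (shCtrl, n = 3) or a hairpin against RBPMS, an RNA-binding protein (shRBPMS, n = 3), and the cells were then kept in puromycin for 48 h, so that both groups carry a lentivirus and had puromycin. The other experiment set Kasumi-1 with DMSO (n = 2) against Kasumi-1 with RB98# (n = 2), a compound known here by its code name only. Its dose and duration are not in the labels. Each experiment was compared with its own controls and shares none with the other.

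Translation begins when the eIF4F complex (the cap-binding protein eIF4E, an eIF4G scaffold and the helicase eIF4A) and eIF3 bring the small ribosomal subunit to the capped end of an mRNA. That subunit carries initiator tRNA on eIF2 and scans for a start codon with eIF1 and eIF1A. Kinases that phosphorylate the alpha subunit of eIF2 lower this supply and favour translation of a few stress mRNAs such as that of ATF4, and 4E-BPs hold eIF4E away from eIF4G until mTORC1 phosphorylates them. In elongation, eEF1A brings aminoacyl-tRNA to the ribosome and eEF2 moves the ribosome along, unless eEF2 kinase phosphorylates eEF2. Many mRNAs of elongation factors and ribosomal proteins start with a C and a run of pyrimidines, the 5′ terminal oligopyrimidine (TOP) tract, by which mTORC1 and LARP1 control their translation.

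Library totals were 24027255 to 34375418 counts in the knockdown experiment and 13854281 to 15347684 in the RB98# experiment. Levels below are in CPM, counts scaled to a common library total with TMM factors within each experiment, so that a change of the amount of RNA per cell would not be seen. All 9 markers of Kasumi-1 and myeloblasts were in both tables, with a summed level of 14105 to 19509 CPM in the knockdown experiment. The listed erythroid and fibroblast markers were not found in the tables (0 of 5 and 0 of 4), 1 of 4 epithelial markers was present at 27.1 to 63.6 CPM, and the summed levels of the T cell and B cell markers stayed at or below 10.1 CPM in every library. RBPMS was at 20.4, 7.24 and 7.39 CPM with shCtrl and 2.53, 3.34 and 3.08 CPM with shRBPMS, with no overlap between the groups, a log2 change of -1.96 (adjusted p = 0.0846), and -1.79 (adjusted p = 0.0106) with the replicate number as a block. By their labels the knockdown libraries fall in 2 sets: set 1 holds the first replicate of both groups, and set 2 the others. Mitochondrially encoded genes took 15.2% and 13.2% of the counts in set 1 and 6.20% to 6.95% in set 2. Whether the replicates of a group came from different cultures is not stated, and the p-values may thus rest on technical spread alone. In such bulk RNA, fewer cells of a type and less RNA per cell cannot be told apart.

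These genes took 2.02% to 2.57% of the counts in the knockdown experiment and 3.02% to 3.23% in the RB98# experiment. EEF1A1 alone held 40.1% to 45.8% of that share. Levels between genes are compared per length, as CPM per kilobase of exonic sequence in GENCODE 29. By this measure EEF1A1 ranked first in both control groups, with 1557 CPM per kilobase with shCtrl and 2181 with DMSO, and EEF2 was next with 599.9 and 587. EEF1G was at 515 with DMSO. EIF4G2, EEF1B2, EIF4H and EIF4A2 came after these, between 125 and 172 CPM per kilobase. Among the genes at the low end were EIF5A2, the second eIF5A gene (1.92 with shCtrl and 1.39 with DMSO), and EEF1AKMT3 (1.97 and 2.10). So were EIF5AL1 (4.23 CPM over 3840 exonic bases with shCtrl) and EIF3CL (4.45 CPM over 3091 exonic bases with DMSO), whose counts are uncertain.

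For a few genes the count itself is uncertain. EIF4A1, the main eIF4A helicase, was at 5.44, 18.5 and 23.1 CPM with shCtrl and 8.44, 16.4 and 22.9 CPM with shRBPMS, but at 522 and 517 CPM with DMSO and 502 and 525 CPM with RB98#. Its mean was 33.1 times higher with DMSO than with shCtrl, while over the 60 genes in both tables the median of this ratio was 1.05. The tables were scaled separately. In GENCODE 29, 48.6% of the exonic bases of EIF4A1 are shared with exons of other genes on the same strand. EIF3C, a core eIF3 subunit, was at 10.9 to 43.5 CPM in the knockdown experiment and at 338 to 384 CPM in the RB98# experiment, a ratio of controls of 13.2, and EIF3CL is a near-identical copy of it. EIF3CL had 35 to 1050 counts in the knockdown libraries, and 34 and 105 counts with DMSO against 57 and 0 with RB98#. How reads shared by such copies or by overlapping genes were counted is not stated, so the values of EIF3C, EIF3CL, EIF4A1, EEF1G (99.9% of its exonic bases shared with another gene), EIF2S3, EIF2S3B, EIF5A and EIF5AL1 are uncertain in this respect. The same holds for EEF1AKMT4 and for EEF1A1, whose processed pseudogenes are many. It also holds for EIF3L, with 41.1% of its exonic bases shared with AL022311.1 on the same strand and a ratio of controls of 1.94. In EEF1E1, EEF2KMT, EEF1AKMT4, EEF1AKMT2 and EIF2AK3 the ratio of controls was 3.09, 3.03, 2.94, 2.48 and 2.09, and its cause was not tested. EEF1E1 and EEF1AKMT2 share 18.7% and 14.9% of their exonic bases on the same strand.

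The start of the transcript is shown for some of these genes because the calls are also given by the presence of a TOP-like tract, further below. RefSeq windows (GRCh38.p14) were found for 51 of the 64 genes. A tract was scored where the annotated start base is a C followed by at least 4 letters that are C or T, on the gene's own strand and at that position alone. It was present in 13 of the 51 genes (25.5%) and in 1404 of 27305 genes with a window (5.14%), or 1429 of 35116 windows (4.07%). Each line gives the 40 bases before the annotated start and the first 20 transcribed bases, with the tract in capitals, for the 7 genes with a tract that rose with RB98#. In the last 4, which lack the tract, the capital marks the start base: EIF1 and EIF5A2 had the largest rises with RB98# among such genes, and EEF2K and EIF1AD the largest falls.
EEF1A1 (chr6:73521013-73521072, minus strand): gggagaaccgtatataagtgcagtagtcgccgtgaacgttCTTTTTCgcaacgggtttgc
EEF2 (chr19:3985444-3985503, minus strand): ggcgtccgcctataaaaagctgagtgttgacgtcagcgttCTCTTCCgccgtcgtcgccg
EIF2A (chr3:150546747-150546806, plus strand): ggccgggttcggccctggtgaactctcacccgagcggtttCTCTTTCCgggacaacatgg
EIF2D (chr1:206612446-206612505, minus strand): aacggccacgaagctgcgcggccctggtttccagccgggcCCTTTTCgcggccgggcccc
EIF3D (chr22:36529147-36529206, minus strand): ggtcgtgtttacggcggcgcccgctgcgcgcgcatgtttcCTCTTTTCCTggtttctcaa
EIF3F (chr11:7987297-7987356, plus strand): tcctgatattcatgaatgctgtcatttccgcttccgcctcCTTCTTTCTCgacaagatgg
EIF4B (chr12:53006416-53006475, plus strand): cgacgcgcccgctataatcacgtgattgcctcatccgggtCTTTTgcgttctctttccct
EIF1 (chr17:41688845-41688904, plus strand): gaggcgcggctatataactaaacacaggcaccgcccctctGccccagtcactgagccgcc
EIF5A2 (chr3:170908618-170908677, minus strand): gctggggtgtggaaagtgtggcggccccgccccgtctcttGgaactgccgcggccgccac
EEF2K (chr16:22206238-22206297, plus strand): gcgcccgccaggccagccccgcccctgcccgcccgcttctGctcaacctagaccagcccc
EIF1AD (chr11:66002138-66002197, minus strand): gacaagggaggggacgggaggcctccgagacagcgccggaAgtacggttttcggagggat
The tract runs over 7 bases in EEF1A1, EEF2 and EIF2D, 8 in EIF2A, 10 in EIF3D and EIF3F and 5 in EIF4B. A match describes these letters at an annotated start, and which start the cells used was not measured.

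All 63 and all 61 genes passed the filter on low counts in their experiment, and 60 of 60 in the joint fit. With RB98#, 17 of the 61 genes rose and 13 fell at an adjusted p under 0.05 (27.9% and 21.3%), where 20.5% of all 12324 genes tested rose and 17.3% fell. The median log2 change was -0.017 over the 61 genes and close to 0 over all genes. In 23 of the genes both RB98# libraries lay above both DMSO libraries and in 24 both lay below, 37.7% and 39.3% of the 61, against 34.3% and 34% of all genes. Elongation factors and eIF3 subunits were among the genes that rose, and enzymes that modify elongation factors among those that fell. The background for the counts by role below is 20.5% up and 17.3% down over all genes. With library totals in place of TMM factors, which shifts the median of all genes by -0.10, 11 rose and 24 fell (18% and 39.3%), against 13.7% and 26.6% of all genes. EEF1G, EIF2AK1, EIF3D, EIF3F, EIF3H and EIF4G2 were then not called, and no gene called with TMM factors had the opposite sign. In the authors' deposited values EEF1AKMT1 (adjusted p = 0.269), EEF1AKMT3 (0.307), EEF1AKMT4 (0.264), EIF2B4 (0.158) and EIF4E (0.0675) were not under 0.05. Leaving out DMSO replicate 1 left 10 up and 6 down (16.4% and 9.84%, against 12.9% and 10.2% of all genes), and leaving out DMSO replicate 2 left 9 up and 4 down (14.8% and 6.56%, against 12.6% and 9.61%).

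**Figure D1:**
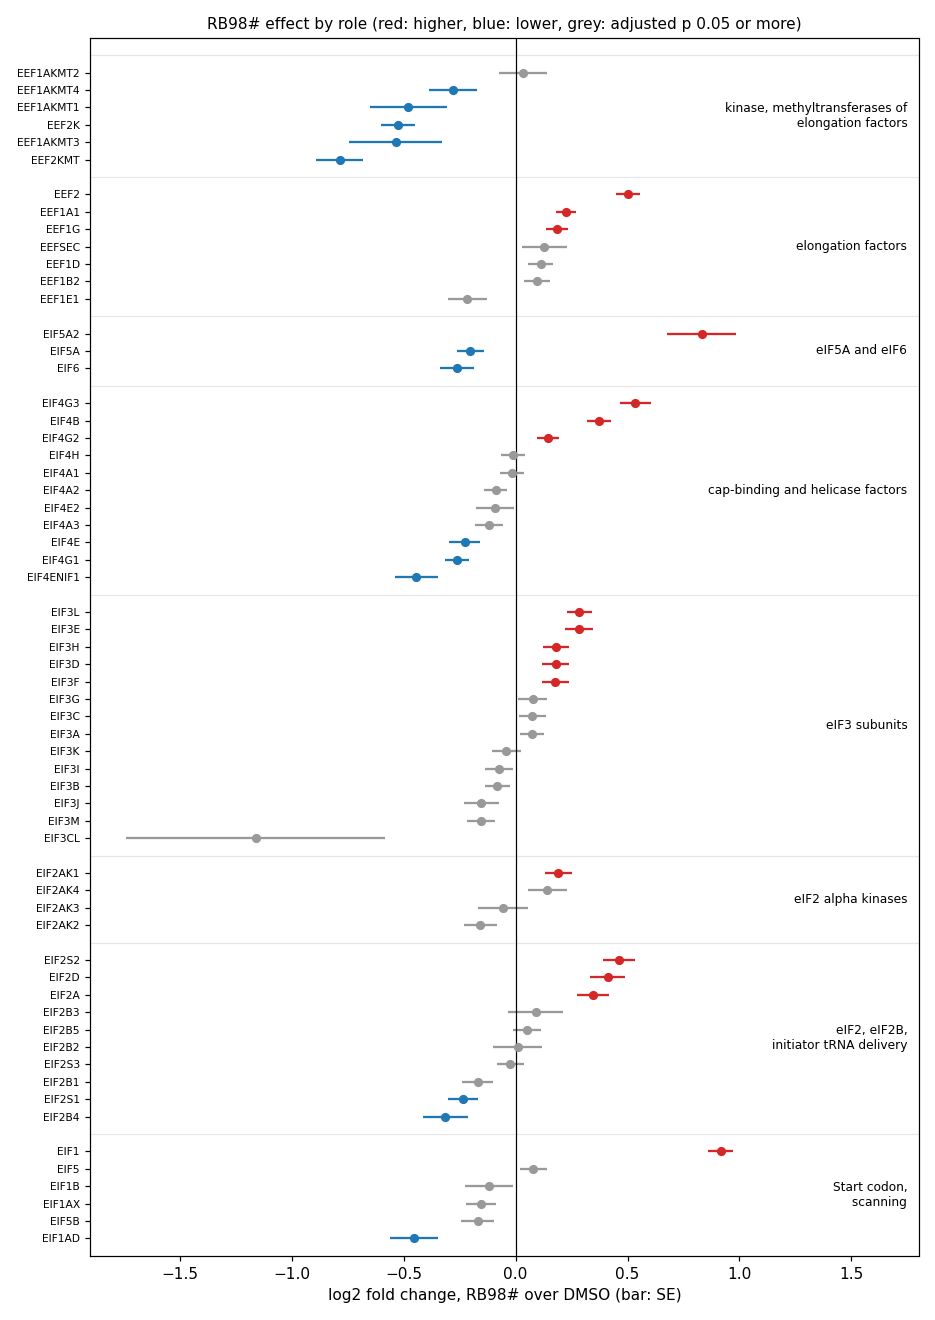
The log2 fold change of RB98# over DMSO (horizontal axis, with its SE as a bar) is plotted for each of the 61 genes, grouped by role, with genes called higher in red, called lower in blue and not called in grey. EIF1 lies farthest to the right at 0.92, and 5 of the 6 enzymes acting on elongation factors in the table lie to the left of 0 in blue.

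Of the 6 genes listed under start codon selection and scanning, EIF1 rose and EIF1AD fell. Whether EIF1AD acts in this step was not tested. EIF1 encodes eIF1, which keeps the scanning ribosome open until a good start codon is reached, and is annotated at chr17:41688885-41692668, plus strand (GRCh38, GENCODE 29). It was at 262 and 258 CPM with DMSO and 504 and 477 CPM with RB98#, a 1.89-fold rise (log2 change 0.92, SE 0.057, adjusted p = 3.72e-12). Both RB98# libraries were far above both DMSO libraries, and this was the largest rise among the 61 genes. Its paralog EIF1B had a log2 change of -0.12 (adjusted p = 0.416), the eIF1A gene EIF1AX -0.16 (adjusted p = 0.0685), the eIF2 GTPase activator EIF5 0.079 (adjusted p = 0.321) and the subunit-joining factor EIF5B -0.17 (adjusted p = 0.0681). None of these 4 was called. EIF1AD was at 33.5 and 38.0 CPM with DMSO and 28.1 and 24.0 CPM with RB98# (log2 change -0.45, SE 0.11, adjusted p = 0.00148), with no overlap between the groups, and its call was lost without DMSO replicate 2.

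Of 10 genes for eIF2, its exchange factor eIF2B and other carriers of initiator tRNA, 3 rose and 2 fell. The subunits of eIF2 did not move together. EIF2S2, its beta subunit, was at 148 and 158 CPM with DMSO and 226 and 194 CPM with RB98# (log2 change 0.46, SE 0.07, adjusted p = 1.28e-05). EIF2S1, the alpha subunit that the stress kinases phosphorylate, was at 142 and 138 CPM with DMSO and 124 and 114 CPM with RB98# (log2 change -0.24, SE 0.067, adjusted p = 0.0071), and its call was lost without either DMSO library. For EIF2S3, the gamma subunit, the log2 change was -0.024 (adjusted p = 0.784). EIF2D and EIF2A, which have been described to deliver initiator tRNA without eIF2, both rose. EIF2D was at 65.3 and 59.7 CPM with DMSO and 82.6 and 83.6 CPM with RB98# (log2 change 0.41, SE 0.078, adjusted p = 0.000175) and EIF2A at 82.6 and 81.1 CPM with DMSO and 109 and 99.1 CPM with RB98# (log2 change 0.35, SE 0.073, adjusted p = 0.000529). Among the eIF2B subunits EIF2B4 fell, at 33.0 and 32.5 CPM with DMSO and 27.6 and 24.9 CPM with RB98# (log2 change -0.31, SE 0.10, adjusted p = 0.0163), and it was not called by DESeq2 or without DMSO replicate 1, DMSO replicate 2 or RB98# replicate 2. The other 4 subunits had log2 changes between -0.17 and 0.089 and were not called.

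Of the 4 kinases of eIF2 alpha, EIF2AK1, which responds to heme shortage, rose, and 0 fell. EIF2AK1 was at 171 and 176 CPM with DMSO and 198 and 197 CPM with RB98# (log2 change 0.19, SE 0.061, adjusted p = 0.0157), a call lost without either DMSO library and with library totals only, where 1 kinase fell and 0 rose. EIF2AK2, the kinase activated by double-stranded RNA, was at 94.3 and 92.9 CPM with DMSO and 89.0 and 78.6 CPM with RB98# (log2 change -0.16, SE 0.075, adjusted p = 0.102). EIF2AK3, the kinase of the endoplasmic reticulum, was at 28.9 and 27.4 CPM with DMSO and 29.8 and 24.1 CPM with RB98# (log2 change -0.056, SE 0.11, adjusted p = 0.728), so its libraries overlapped between the groups. EIF2AK4, which senses uncharged tRNA, had a log2 change of 0.14 (adjusted p = 0.211).

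Of the 14 genes of eIF3, the scaffold between the mRNA, the small subunit and eIF4G, 5 rose and 0 fell. These were EIF3L (0.28, with counts uncertain as given above), EIF3E (0.28), EIF3H (0.18), EIF3D (0.18) and EIF3F (0.18), of which EIF3L and EIF3E kept 1 call each when a DMSO library was left out, EIF3L without replicate 1 and EIF3E without replicate 2, and the other 3 none. EIF3A, the largest core subunit, was at 623 and 615 CPM with DMSO and 671 and 631 CPM with RB98# (log2 change 0.073, SE 0.054, adjusted p = 0.306), both RB98# libraries being higher. EIF3B had -0.082 (adjusted p = 0.255) and EIF3G 0.076 (adjusted p = 0.391). The median log2 change of the 14 was 0.073. With library totals only, 2 of the 14 rose and 4 fell, with a median of -0.028, so the direction of the group depends on the scaling. Of all genes 13.7% rose and 26.6% fell with that scaling. Without either DMSO library fewer of the 14 rose. Falls were called in some runs with a DMSO or an RB98# library left out, so the calls also depend on the libraries used. Each such run leaves 1 library in a group.

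Among the 11 cap-binding and helicase factors, 3 rose and 3 fell, and the scaffolds of the eIF4G family parted. EIF4G3, the second eIF4G scaffold, which is annotated at chr1:20806292-21176888, minus strand, was at 78.9 and 79.4 CPM with DMSO and 117 and 112 CPM with RB98# (log2 change 0.53, SE 0.07, adjusted p = 1.49e-06). EIF4G1, the main scaffold, was at 1002 and 992 CPM with DMSO and 797 and 864 CPM with RB98# (log2 change -0.26, SE 0.054, adjusted p = 0.000421). EIF4G2, a relative that lacks the eIF4E-binding part, rose less, at 1132 and 1145 CPM with DMSO and 1269 and 1247 CPM with RB98# (log2 change 0.14, SE 0.051, adjusted p = 0.0267), and its call was lost with library totals only and without either DMSO library. In all 3 the groups did not overlap, 2 of them higher and EIF4G1 lower with RB98#. With 2 libraries a group this holds for 34.3% (higher) and 34% (lower) of all genes. EIF4B, which stimulates the helicase, was at 533 and 529 CPM with DMSO and 688 and 687 CPM with RB98# (log2 change 0.37, SE 0.053, adjusted p = 5.1e-06). The cap-binding protein gene EIF4E was at 116 and 114 CPM with DMSO and 103 and 93.6 CPM with RB98# (log2 change -0.23, SE 0.07, adjusted p = 0.012), and its call was lost without either DMSO library. EIF4ENIF1, which carries eIF4E to the nucleus and to P-bodies, was at 39.1 and 38.5 CPM with DMSO and 27.2 and 29.9 CPM with RB98# (log2 change -0.44, SE 0.097, adjusted p = 0.000819). The helicase genes EIF4A1 and EIF4A2 had -0.017 (adjusted p = 0.832) and -0.089 (adjusted p = 0.18) and were not called.

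The eIF5A genes moved in opposite directions. EIF5A2, the less abundant, was at 7.99 and 7.59 CPM with DMSO and 14.3 and 13.4 CPM with RB98#, a 1.78-fold rise (log2 change 0.83, SE 0.15, adjusted p = 0.000134). EIF5A, whose hypusine-modified protein helps the ribosome past stalling residues, was at 328 and 309 CPM with DMSO and 267 and 287 CPM with RB98# (log2 change -0.20, SE 0.06, adjusted p = 0.00942). In neither gene did the groups overlap, with the same shares of all genes as given for the eIF4G family. EIF6, which keeps free large subunits from joining small ones, was at 95.9 and 94.4 CPM with DMSO and 74.9 and 83.8 CPM with RB98# (log2 change -0.26, SE 0.075, adjusted p = 0.00717). The falls of EIF5A and EIF6 were not called without either DMSO library.

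Of 7 elongation factor genes 3 rose and 0 fell. EEF2, which drives translocation and is annotated at chr19:3976056-3985469, minus strand, was at 2445 and 2281 CPM with DMSO and 3201 and 3488 CPM with RB98#, a 1.42-fold rise (log2 change 0.50, SE 0.053, adjusted p = 6.82e-08). EEF1A1 was at 13127 and 12822 CPM with DMSO and 15042 and 15318 CPM with RB98# (log2 change 0.23, SE 0.045, adjusted p = 0.000317), and its call was lost without DMSO replicate 2. Both RB98# libraries lay above both DMSO libraries. EEF1G, a subunit of the exchange factor of eEF1A, rose, at 1404 and 1392 CPM with DMSO and 1567 and 1612 CPM with RB98# (log2 change 0.19, SE 0.05, adjusted p = 0.00485), and its call was lost with library totals only and without either DMSO library. The other exchange factor subunits EEF1B2 and EEF1D had 0.096 (adjusted p = 0.195) and 0.11 (adjusted p = 0.127). EEFSEC, the factor for selenocysteine, had 0.13 (adjusted p = 0.328), and EEF1E1, a subunit of the multi-synthetase complex, -0.22 (adjusted p = 0.0528). With library totals only, 2 of the 7 rose and 1 fell, against 13.7% and 26.6% of all genes.

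Of the 6 enzymes that modify elongation factors 5 fell and 0 rose, with a median log2 change of -0.50, the farthest from 0 among the 8 roles. EEF2K, the kinase that inactivates eEF2, is annotated at chr16:22206282-22288732, plus strand. It was at 86.2 and 84.6 CPM with DMSO and 58.1 and 60.6 CPM with RB98# (log2 change -0.53, SE 0.076, adjusted p = 6.91e-06). EEF2KMT, which methylates eEF2, was at 33.0 and 33.1 CPM with DMSO and 19.5 and 18.8 CPM with RB98#, falling to 0.58 times the control (log2 change -0.79, SE 0.11, adjusted p = 2.32e-06). So with RB98# the transcript of eEF2 was higher and those of its kinase and methyltransferase were lower. For EEF2KMT the controls of the experiments differed, with a ratio of 3.03 as given above. In all 3 genes the groups did not overlap, as in 34.3% (higher) and 34% (lower) of all genes. The methyltransferases of eEF1A were at lower levels. EEF1AKMT1 was at 9.08 and 9.91 CPM with DMSO and 6.55 and 7.09 CPM with RB98# (log2 change -0.48, SE 0.17, adjusted p = 0.0312) and EEF1AKMT3 at 6.76 and 6.59 CPM with DMSO and 4.78 and 4.41 CPM with RB98# (log2 change -0.54, SE 0.21, adjusted p = 0.0446). EEF1AKMT4 was at 27.0 and 28.6 CPM with DMSO and 22.0 and 23.7 CPM with RB98# (log2 change -0.28, SE 0.11, adjusted p = 0.0412), and EEF1AKMT2 was not called (0.033, adjusted p = 0.842). The calls of EEF2K and EEF2KMT held in each alternative run. Those of the other 3 were lost with DESeq2, which called 2 of the 6 lower, against 11.9% of all genes. They were also lost without either DMSO library and without RB98# replicate 1. The call of EEF1AKMT3 was lost without RB98# replicate 2 as well, and that of EEF1AKMT4 with the replicate block. Here no read length or place within these genes is known, and EEF1AKMT4 shares 26.3% of its exonic bases with the readthrough gene EEF1AKMT4-ECE2.

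**Figure D2:**
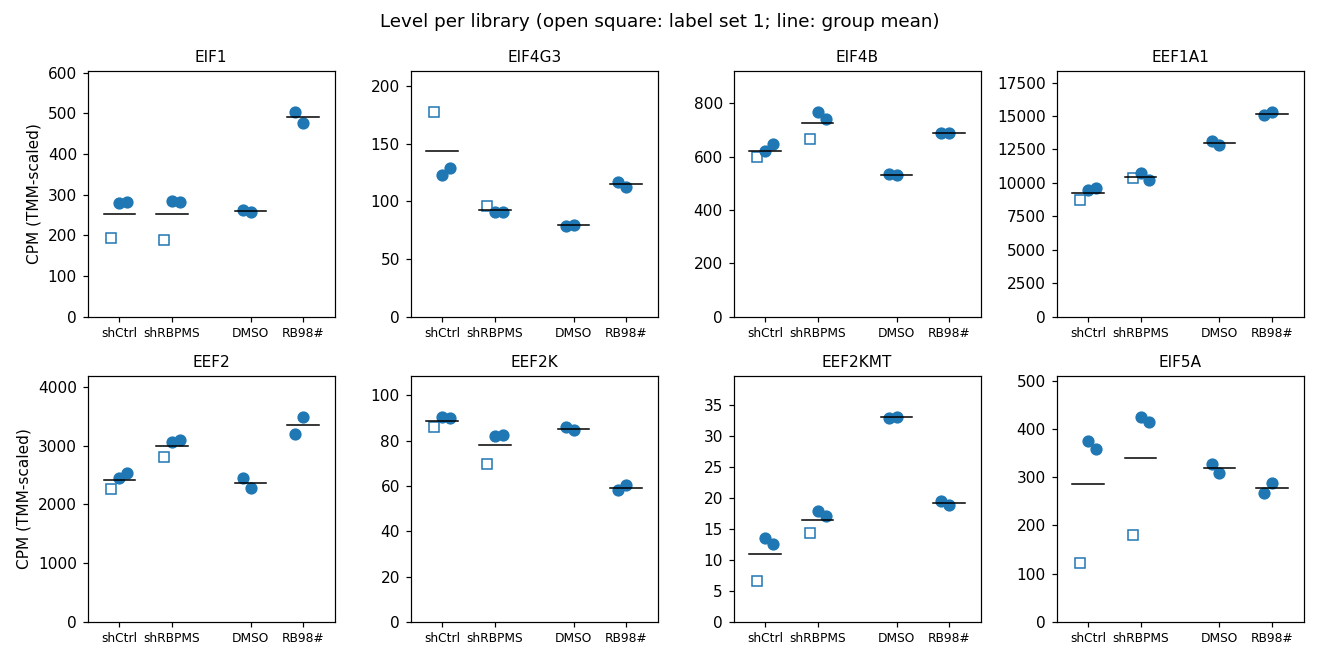
The level in each library (CPM, linear axes from 0) is plotted for 8 genes by group, with open squares for label set 1 of the knockdown experiment and a line at each group's mean. EIF1, EIF4G3, EIF4B, EEF1A1 and EEF2 lie higher and EEF2K, EEF2KMT and EIF5A lower with RB98# than with DMSO. The squares of several genes lie below the other libraries of their groups, among them those of EIF1, EIF5A, EEF2KMT, EEF2 and EEF2K.

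In the knockdown experiment 0 of the 63 genes rose and 0 fell in edgeR with a design of group alone, where 0.629% of all 16215 genes tested rose and 1.34% fell. At an unadjusted p under 0.05 there were 5 of the 63 and 2733 of all genes, and DESeq2 called 2 up and 1 down (3.17% and 1.59%, against 3.18% and 4.98% of all genes). With the replicate number as a block, which takes up the difference between label sets, 13 rose and 3 fell (20.6% and 4.76%), against 13.3% and 14.8% of all genes. With the label set as a covariate 19 rose and 9 fell, against 17.5% and 18.4% of all genes. When replicates 2 and 3 were first summed to 1 library a group, the covariate left 4 rises and 2 falls (6.35% and 3.17%, against 7.73% and 8.62% of all genes). These were EEF1AKMT2, EEF1AKMT4, EEF2KMT, EIF2AK4, EIF4G2 and EIF4G3, and the other 10 of the 16 blocked calls were lost. The median log2 change without the block was 0.082 over the 63 genes and 0.015 over all genes. All 3 shRBPMS libraries lay above all 3 shCtrl libraries in 14 genes and below them in 4, or 22.2% and 6.35%, against 12.3% and 13.6% of all genes. The genes named next were taken from the fit with the block, since the fit without it called none of them. In none of these 16 did the sign differ between both fits.

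EIF4G3, EIF4G2 and EIF5 fell with the block, and the call of EIF5 was lost with summed replicates (adjusted p = 0.26). EIF4G3 was at 178, 123 and 129 CPM with shCtrl and 95.6, 90.8 and 90.3 CPM with shRBPMS. The groups did not overlap, and shCtrl replicate 1, the library of set 1, stood highest. The log2 change was -0.61 with the block (adjusted p = 0.0046) and -0.63 without it (adjusted p = 0.112), -0.89 in set 1 and -0.47 in set 2. In the authors' deposited table it was -0.58 (adjusted p = 0.0165). There EIF4G2 (adjusted p = 0.0438), EEF1AKMT2 (0.0475) and EEF1AKMT4 (0.0416) were also under 0.05. The other blocked calls were not, among them EEF2KMT (0.0701), EIF2AK4 (0.106), EIF2D (0.167) and EEF2 (0.347). EIF4G2 was at 1648, 1026 and 1033 CPM with shCtrl and 1174, 788 and 786 CPM with shRBPMS, with a log2 change of -0.42 (adjusted p = 0.0035, and adjusted p = 0.476 without the block). Its libraries overlapped between the groups because both libraries of set 1 were higher than those of set 2. Within each set, shRBPMS was lower. EIF5 was at 340.0, 258 and 258 CPM with shCtrl and 301, 218 and 215 CPM with shRBPMS (-0.23, adjusted p = 0.0251, and adjusted p = 0.658 without the block). EIF4G1, by contrast, was at 803, 890.1 and 859 CPM with shCtrl and 1110, 925 and 938 CPM with shRBPMS and was not called (0.22, adjusted p = 0.114), with a log2 ratio of 0.47 in set 1 and 0.091 in set 2.

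The rises after the knockdown included elongation factors, eIF3 subunits and modifying enzymes. EEF2 was at 2255, 2450 and 2542 CPM with shCtrl and 2807, 3060 and 3089 CPM with shRBPMS, and every shRBPMS library was above every shCtrl library. The log2 change was 0.31 with the block (adjusted p = 0.0111) and 0.31 without it (adjusted p = 0.293), 0.32 in set 1 and 0.30 in set 2. With summed replicates EEF2 was not called (adjusted p = 0.143). EEF1A1 was at 8702, 9492 and 9588 CPM with shCtrl and 10355, 10719 and 10245 CPM with shRBPMS, also with no overlap, and was not called (0.17, adjusted p = 0.105 with the block). EEF1B2, of the exchange factor of eEF1A, rose (0.29, adjusted p = 0.0297, adjusted p = 0.735 without the block and adjusted p = 0.0885 with summed replicates). Of the 14 eIF3 genes EIF3D, EIF3E, EIF3I and EIF3M rose with the block and 0 fell. A positive log2 change was seen in 12 of the 14, against 40 of the 63 genes, a set that holds these 14. In both label sets 11 of the 14 were higher and 1 was lower, against 6323 and 5681 of all 16215 genes tested. The 14 include EIF3C and EIF3CL, whose counts are uncertain. With summed replicates 0 of the 14 were called. EIF3I was at 136, 172 and 170.4 CPM with shCtrl and 172, 202 and 212 CPM with shRBPMS (0.30, adjusted p = 0.0109, and adjusted p = 0.39 without the block). The others had 0.22, 0.18 and 0.19, and EIF3A was at 678, 675 and 649 CPM with shCtrl and 661, 680.0 and 695 CPM with shRBPMS (0.024, adjusted p = 0.799).

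Among carriers of initiator tRNA and the stress kinases, EIF2D and EIF2AK4 rose with the block. EIF2D was at 57.6, 61.7 and 63.5 CPM with shCtrl and 77.7, 78.7 and 80.7 CPM with shRBPMS (0.38, adjusted p = 0.00587, adjusted p = 0.145 without it and adjusted p = 0.0502 with summed replicates). EIF2AK4, the kinase GCN2, was at 53.1, 45.0 and 45.8 CPM with shCtrl and 73.7, 58.5 and 61.5 CPM with shRBPMS (0.43, adjusted p = 0.00435, and adjusted p = 0.197 without it). Both had no overlap between the groups. EIF2S1 was at 126, 129 and 124 CPM with shCtrl and 137, 136 and 133 CPM with shRBPMS (0.10, adjusted p = 0.23). EIF2AK2 was at 142, 99.8 and 99.7 CPM with shCtrl and 120.1, 90.2 and 93.4 CPM with shRBPMS (-0.16, adjusted p = 0.0948) and EIF2AK3 at 15.8, 12.7 and 11.8 CPM with shCtrl and 19.9, 15.4 and 14.1 CPM with shRBPMS (0.29, adjusted p = 0.0518). In both of these, within each group, the library of set 1 lay above those of set 2. EIF4B rose (0.22, adjusted p = 0.0373, adjusted p = 0.429 without the block and adjusted p = 0.313 with summed replicates). EIF4E was at 91.7, 98.2 and 95.7 CPM with shCtrl and 81.7, 94.1 and 91.1 CPM with shRBPMS (-0.10, adjusted p = 0.261), lower in each set but overlapping between the groups.

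Of the 7 modifying enzymes of elongation factors 3 rose with the block and 0 fell. EEF2KMT was at 6.64, 13.6 and 12.5 CPM with shCtrl and 14.3, 17.9 and 17.0 CPM with shRBPMS (0.62, adjusted p = 0.0219, and adjusted p = 0.362 without the block). EEF1AKMT4 was at 5.17, 12.3 and 10.9 CPM with shCtrl and 10.7, 17.2 and 15.7 CPM with shRBPMS (0.66, adjusted p = 0.0126, and adjusted p = 0.449 without it), so that the groups overlapped while each set was higher with shRBPMS. EEF1AKMT2 was at 9.54, 9.57 and 10.6 CPM with shCtrl and 13.3, 16.4 and 14.2 CPM with shRBPMS (0.56, adjusted p = 0.0117, and adjusted p = 0.122 without it), with no overlap. EEF2K was at 86.2, 90.5 and 89.9 CPM with shCtrl and 69.8, 81.9 and 82.6 CPM with shRBPMS, lower in every shRBPMS library, and was not called (-0.19, adjusted p = 0.0734). EIF5A was at 123, 375 and 359 CPM with shCtrl and 180.3, 425 and 416 CPM with shRBPMS (0.31, adjusted p = 0.0315, adjusted p = 0.88 without the block and adjusted p = 0.0693 with summed replicates). Its level in set 1 was less than the level in set 2 in both groups, and without shCtrl replicate 1 the log2 change without the block was -0.11. EIF6 was at 33.4, 76.4 and 79.3 CPM with shCtrl and 36.2, 75.2 and 73.0 CPM with shRBPMS (-0.013, adjusted p = 0.912), with the same low level in set 1.

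Levels also differed between the label sets. In shCtrl the log2 ratio of set 1 over set 2 ran from -1.83 in EIF4A1 to 3.04 in EIF3CL, with -1.57 in EIF5A, -1.38 in EEF1D and -1.21 in EIF6. In both groups 31 of the 63 genes (49.2%) were lower in set 1, against 39.8% of all genes, and 25 (39.7%) were higher, against 40.6%. The share of mitochondrially encoded counts differed between the sets as given above, and its part in these values was not tested. The knockdown effect went the same way in both sets in 47 of the 63 genes, 33 higher and 14 lower. Over all 16215 genes tested it did so in 12004, with 6323 higher and 5681 lower. RBPMS itself had a log2 ratio of -2.79 in set 1 and -1.08 in set 2, a difference of 1.82 (adjusted p = 7.17e-06). A test of the difference between sets called 2 genes with a higher effect in set 2 and 8 with a lower one, 3.17% and 12.7% of the 63, against 8.25% and 9.01% of all genes.

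**Figure D3:**
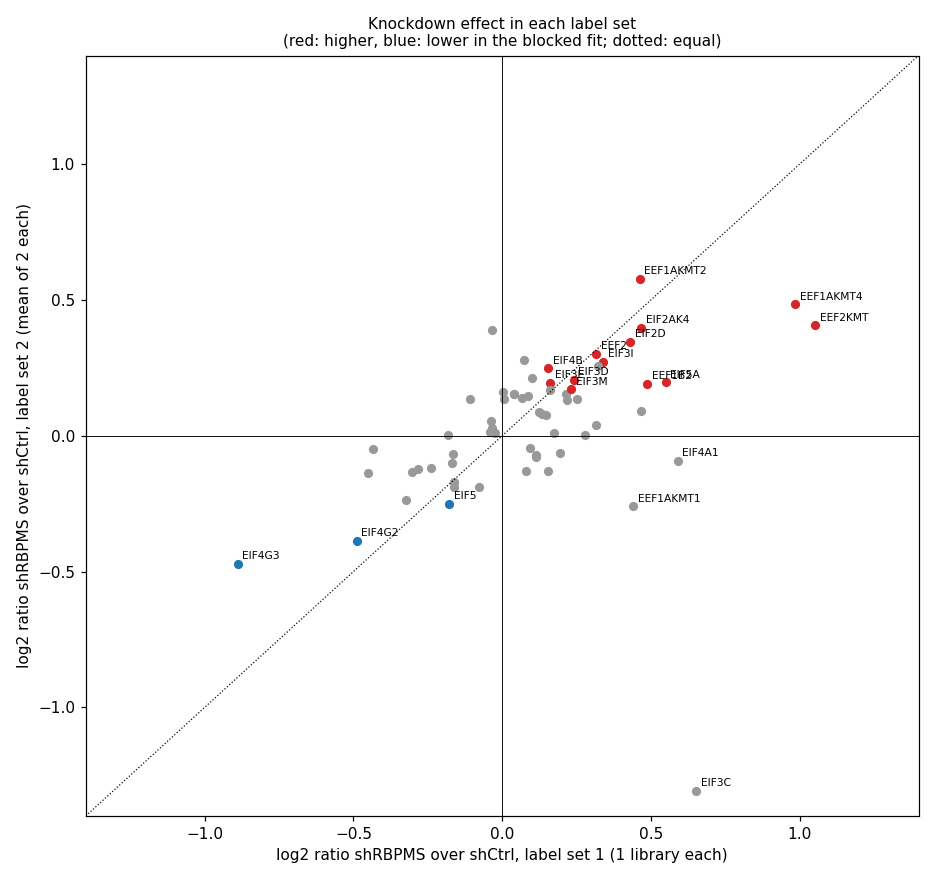
Each point is 1 of the 63 genes, placed by its log2 ratio of shRBPMS over shCtrl in label set 1 (horizontal, 1 library each) and label set 2 (vertical, mean of 2 libraries each), in red or blue where the fit with the block called it higher or lower. EIF4G3 and EIF4G2 lie lower left with -0.89 and -0.47, and -0.49 and -0.39, while EIF3C, whose counts are uncertain, lies apart at 0.65 and -1.31.

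EIF4G3 was the 1 gene of 60 whose effects differed between the experiments in a fit of all 10 libraries (1.67%, and 0 in the other direction, against 4.79% and 3.36% of all 12126 genes). Its RB98# effect minus its knockdown effect was 1.15 (SE 0.22, adjusted p = 0.0192), since EIF4G3 was lower after the knockdown and higher with RB98#. The call was lost without shRBPMS replicate 2 (1.15, adjusted p = 0.0520), shRBPMS replicate 3 (1.14, 0.0504), DMSO replicate 1 (1.15, 0.0989), DMSO replicate 2 (1.16, 0.101), RB98# replicate 1 (1.12, 0.0943) and RB98# replicate 2 (1.19, 0.0707). With the replicate number within each experiment as a block the difference was 1.13 (adjusted p = 0.000636), and 7 genes differed upward and 10 downward (11.7% and 16.7%, against 18.9% and 18.2% of all genes).

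Side by side, 5 genes rose in both experiments (with the block in the knockdown), namely EEF2, EIF2D, EIF3D, EIF3E and EIF4B. They are 5 of the 13 that rose after the knockdown and 5 of the 17 that rose with RB98#, and with replicates 2 and 3 summed 0 of the 5 were called after the knockdown. Of the other calls, EEF1AKMT4, EEF2KMT and EIF5A rose after the knockdown and fell with RB98#, EIF4G2 and EIF4G3 fell after the knockdown and rose with RB98#, and 0 genes fell in both. Of all genes, 13.3% rose after the knockdown with the block and 20.5% with RB98#. The number of all genes that rose in both is not given here, so the 5 have no background beside them. This overlap was not tested, and RBPMS itself was at 7.17 and 6.40 CPM with DMSO and 6.62 and 8.06 CPM with RB98# (0.11, adjusted p = 0.678).

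Among the 12 genes with a tract at the annotated start that were in the RB98# table, 7 rose and 0 fell, with a median log2 change of 0.18. These are the 7 printed above. Of 37 genes with a window and no tract, 5 rose and 10 fell, with a median of -0.091. Over all genes tested, those with a tract gave 146 rises and 114 falls of 738 (median 0.030), and those without it 1900 rises and 1561 falls of 9036. EEF1B2, whose tract is the longest here, was not called with RB98# (0.096, adjusted p = 0.195), and neither were EIF2S3, EIF3K, EIF3M and EIF4A2. With library totals only, 5 of the 12 rose and 2 fell, with a median of 0.077, where 13.7% of all genes rose and 26.6% fell. The shares of all genes with a tract are not given here for that scaling. Falls among the 12 were also called when a library was left out, though not in every such run. Each such run leaves a lone library in a group. The absence of falls thus depends on the scaling and on the libraries used. After the knockdown 6 of 13 genes with a tract rose with the block (EEF1B2, EEF2, EIF2D, EIF3D, EIF3M and EIF4B) and 0 fell, and 0 of 13 were called without the block or with replicates 2 and 3 summed. Of all 771 tested genes with a tract, 144 rose and 135 fell with the block. This grouping was chosen after the values were seen.

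**Figure D4:**
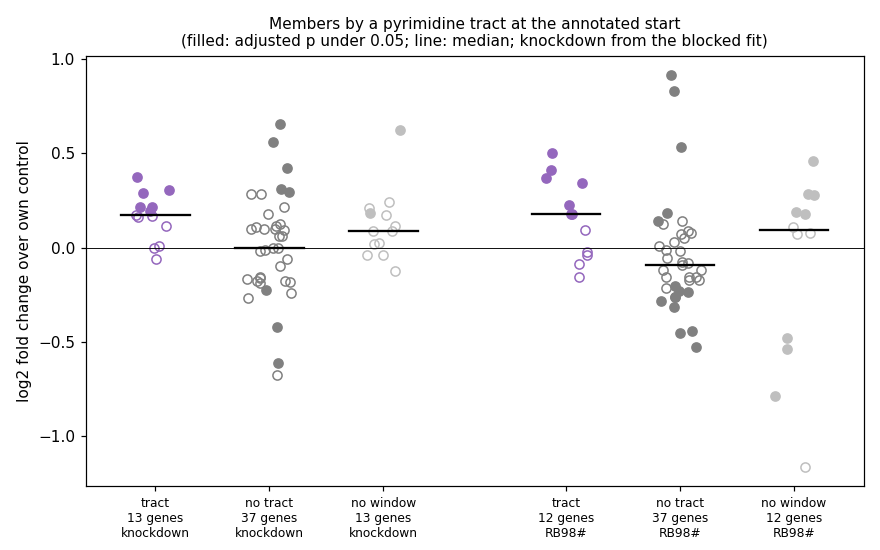
The log2 fold change (vertical) is plotted for each gene by the pyrimidine tract at its annotated start, for the knockdown with the block (left) and RB98# (right), with filled points for an adjusted p under 0.05 and a line at the median. The 12 genes with a tract in the RB98# table have a median of 0.18 and no filled point below 0, while the 37 without it spread to both sides, and genes with no window are shown in light grey.

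The other genes of the pathway were listed by role. For the counts of each list, 20.5% of all genes rose and 17.3% fell with RB98#. After the knockdown these shares were 0.629% and 1.34% without the block, 13.3% and 14.8% with it, and 7.73% and 8.62% with summed replicates. With RB98#, 7 of 10 genes of the eIF2 alpha phosphatases and the stress response rose and 1 fell, with a median log2 change of 0.85. ATF3, a transcription factor of stress, was at 5.94 and 9.41 CPM with DMSO and 69.5 and 61.1 CPM with RB98#, an 8.44-fold rise (log2 change 3.08, SE 0.14, adjusted p = 4.14e-15). PPP1R15A, the inducible subunit that brings protein phosphatase 1 to eIF2 alpha, was at 18.0 and 19.9 CPM with DMSO and 60.7 and 59.2 CPM with RB98# (log2 change 1.66, SE 0.097, adjusted p = 1.33e-12), and TRIB3, a pseudokinase, was at 42.5 and 44.4 CPM with DMSO and 83.1 and 80.3 CPM with RB98# (log2 change 0.91, SE 0.081, adjusted p = 3.1e-09). ATF4, PPP1R15B, DDIT3 and DNAJC3 also rose (0.85, 0.87, 0.84 and 0.23), named after their values were seen. In the authors' deposited values DNAJC3 was not under 0.05 (adjusted p = 0.114), while ATF4, PPP1R15B and DDIT3 were. IMPACT, which keeps the kinase EIF2AK4 in check, fell, at 60.0 and 64.3 CPM with DMSO and 45.3 and 44.1 CPM with RB98# (log2 change -0.48, SE 0.085, adjusted p = 9.18e-05). Of the kinases themselves only EIF2AK1 was called, as given above, and phosphorylation of eIF2 alpha was not measured. After the knockdown 0 of the 10 were called without the block, and 3 rose with it: TRIB3 (1.09, adjusted p = 0.0011), IMPACT (0.38, adjusted p = 0.0137) and PPP1R15A (0.35, adjusted p = 0.0121). PPP1R15A was not called with summed replicates (adjusted p = 0.0994).

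Of 23 genes of 4E-BPs, cap and mTORC1 control, 7 rose and 2 fell with RB98#. PAIP2B, which binds the poly(A)-binding protein, was at 2.25 and 2.26 CPM with DMSO and 7.44 and 4.26 CPM with RB98# (log2 change 1.38, SE 0.29, adjusted p = 0.000488). TSC1, an inhibitor of mTORC1, was at 77.3 and 70.1 CPM with DMSO and 108 and 113 CPM with RB98# (log2 change 0.59, SE 0.074, adjusted p = 9.01e-07), and MKNK2, a kinase of eIF4E, at 66.8 and 65.4 CPM with DMSO and 93.8 and 99.2 CPM with RB98# (log2 change 0.55, SE 0.074, adjusted p = 2.68e-06). EIF4EBP3 (-0.48, adjusted p = 0.0354) and LARP1 (-0.16, adjusted p = 0.0261) fell, both not called without either DMSO library, and EIF4EBP3 also not without RB98# replicate 1 or by DESeq2. Of the other 4E-BP genes EIF4EBP2 rose (0.29, adjusted p = 0.000298), and EIF4EBP1 was not called (-0.08, adjusted p = 0.432). After the knockdown this list held 1 rise and 2 falls without the block. AKT1S1, an mTORC1 subunit that restrains it, was at 43.4, 49.7 and 50.1 CPM with shCtrl and 105, 93.6 and 98.1 CPM with shRBPMS (log2 change 1.05, SE 0.12, adjusted p = 0.0233). RHEB, the GTPase that activates mTORC1, was at 89.4, 90.9 and 94.6 CPM with shCtrl and 59.4, 61.4 and 58.9 CPM with shRBPMS (log2 change -0.61, SE 0.11, adjusted p = 0.0451), and RPS6KA1, the kinase RSK1, at 25.9, 27.7 and 25.7 CPM with shCtrl and 11.6, 14.0 and 14.3 CPM with shRBPMS (log2 change -0.99, SE 0.15, adjusted p = 0.0314). In all 3 the groups did not overlap. The calls were lost without shCtrl replicate 2, shCtrl replicate 3 or any 1 shRBPMS library, with adjusted p = 0.0563 to 0.153 for AKT1S1, 0.0897 to 0.228 for RHEB and 0.0651 to 0.176 for RPS6KA1, and RHEB also with library totals only (adjusted p = 0.0609). With the block 7 rose and 4 fell, and EIF4EBP2 was at 264, 202 and 202 CPM with shCtrl and 518, 316 and 336 CPM with shRBPMS (0.78, adjusted p = 0.000957), MLST8 had 0.42 (adjusted p = 0.0112) and TSC1 -0.27 (adjusted p = 0.0377). With summed replicates 4 rose and 2 fell, and TSC1 was not called (adjusted p = 0.123).

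**Figure D5:**
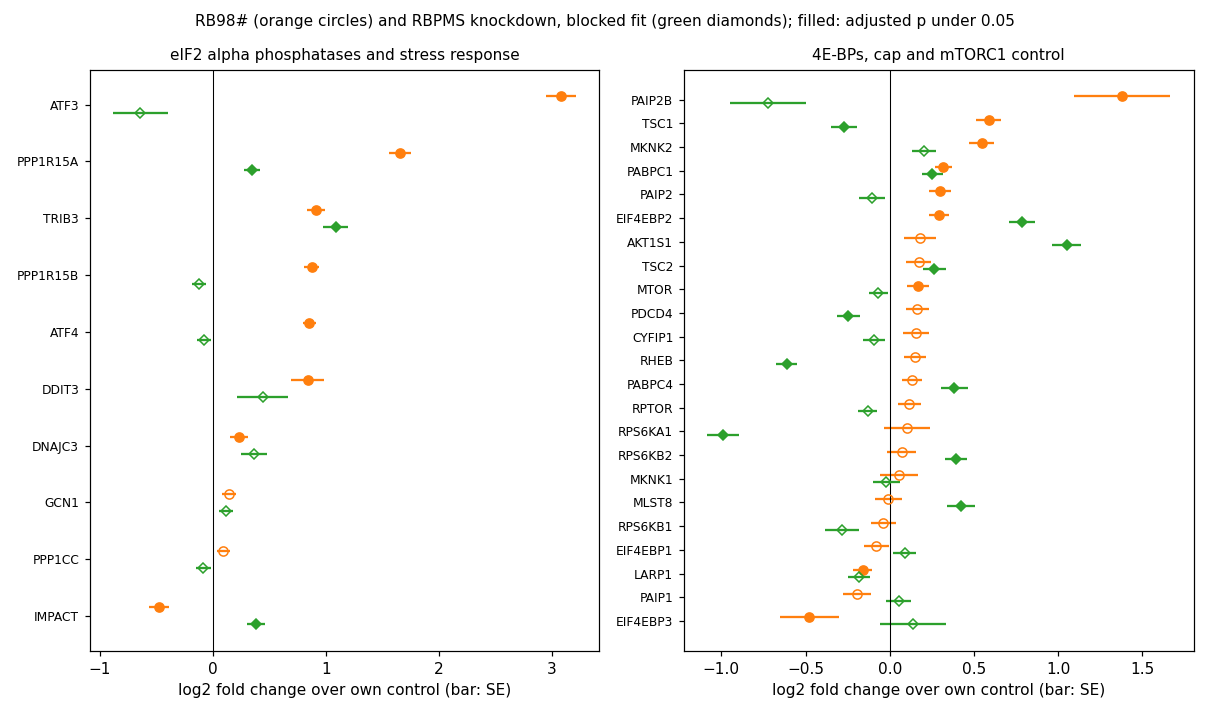
The log2 fold change with its SE is plotted for RB98# over DMSO (orange circles) and for the knockdown with the block (green diamonds), for 10 genes of the eIF2 alpha phosphatases and stress response (left) and 23 genes of 4E-BPs, cap and mTORC1 control (right), filled where the adjusted p was under 0.05. ATF3 reaches 3.08 with RB98#, and AKT1S1 and EIF4EBP2 are the highest diamonds on the right at 1.05 and 0.78.

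Of 16 other initiation, hypusine, termination and recycling factors 2 rose and 3 fell with RB98#. DDX3X, a helicase of structured leaders, was at 396 and 389.9 CPM with DMSO and 590.4 and 544 CPM with RB98# (log2 change 0.53, SE 0.057, adjusted p = 7.29e-08), and HBS1L, which works with PELO to free stalled ribosomes, rose (0.22, adjusted p = 0.029). PELO (-0.65, adjusted p = 0.000369) fell, as did the release factor genes GSPT2 (-0.60, adjusted p = 0.000438) and GSPT1 (-0.22, adjusted p = 0.00694). The calls of HBS1L and GSPT1 were lost without either DMSO library, and that of HBS1L also with DESeq2 and with library totals only. After the knockdown 0 of the 16 were called without the block, and with it METAP1, which removes the first methionine (-0.53, adjusted p = 0.00251), HBS1L (-0.38, adjusted p = 0.00801) and DDX3X (-0.35, adjusted p = 0.00598) fell and 0 rose. With summed replicates METAP1 and HBS1L were called and DDX3X was not (adjusted p = 0.069). DDX3X was at 589, 518 and 517 CPM with shCtrl and 443, 422 and 406 CPM with shRBPMS, so it was lower in every shRBPMS library. Of 9 mitochondrial translation factors MTRF1L (0.35, adjusted p = 0.017) rose and TSFM (-0.53, adjusted p = 0.000272) fell with RB98#, the former not called with DESeq2, with library totals only, without either DMSO library or without RB98# replicate 1. MTIF3 (0.46, adjusted p = 0.0161) and MRRF (0.30, adjusted p = 0.0193) rose after the knockdown with the block, while 0 of the 9 were called without it or with summed replicates. With library totals only, 1 of the 16 rose and 8 fell, and 0 of the 9 rose and 3 fell, with RB98#. With that scaling 13.7% of all genes rose and 26.6% fell.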

How the data were processed

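Messenger RNA of Kasumi-1 cells was sequenced in 10 libraries, and the 4 immunoprecipitation and input samples of the series were not analysed here. The authors deposited raw counts per gene and library, from reads that, per the submitters' processing notes, involved HISAT2 2.2.1, fastp 0.22.0, StringTie, DESeq2 1.32.0 and featureCounts 2.0.1 on hg38, with no roles or order given. Other columns of the deposited tables hold the authors' log2 fold changes, p-values and adjusted p-values, and, in the knockdown table, an adjusted signal per library whose making the sources used here do not state. The tables hold no gene with a summed count under 27 (knockdown) or 50 (RB98#), and 112 repeated lines of the RB98# table were dropped. A further 4 columns of per-library values match no sample by name and were not used. Library totals of 13854281 to 34375418 counts set the counting precision.

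Counts were fitted in edgeR 4.0.16 (R 4.3.3) by the quasi-likelihood test, with TMM factors, the edgeR filter (count 10, total 15) and Benjamini-Hochberg adjustment over all genes of the table, and a call is an adjusted p under 0.05. All adjusted p-values in the text are from this test unless another is named. The SE is the log2 change divided by the square root of the test statistic. DESeq2 1.42.0, limma 3.58.1 (voom, or the authors' adjusted signal with a pseudocount of 1), other scalings, no filter, left-out libraries and the replicate block were alternatives. The log2 ratios within a label set used CPM with a pseudocount of 0.5. Same-numbered knockdown libraries deviated together (r = 0.870, 0.804 and 0.827 over 9416 genes), but so did replicates 2 and 3 crosswise (0.809 and 0.802), so the pairing comes from the label set, and the blocked values are printed beside the others. Scripts were tested on simulated counts.

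The members and the lists were chosen with earlier results of these data known. Genes were named by rule: up to 8 a direction at a mean log2 CPM not under 2 (for the knockdown from the blocked fit, since the other called fewer than 5), 12 factors in every case, up to 4 a sign for the difference and 3 a direction for the other lists. Places and exonic lengths are from GENCODE 29, and start windows from RefSeq.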

Additional observations from a re-analysis of the deposited data

Results flagged for a closer look

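The knockdown effect differed between the 2 label sets, by an interaction term in edgeR adjusted over all genes, in 10 of the 63 genes. As the log2 effect in set 2 minus that in set 1, it was higher in set 2 for EIF4G3 (0.42) and EIF4ENIF1 (0.39). It was lower in set 2 for EIF3C (-2.12), whose counts are uncertain, EEF1AKMT1 (-0.74), EEF2KMT (-0.68), EIF4G1 (-0.38), EIF5A (-0.35), EEF1B2 (-0.30), EEF1D (-0.26) and EIF4A2 (-0.21). EIF4G3, the second eIF4G scaffold, fell in both sets and fell further in set 1, while EEF2KMT and EIF5A had a larger rise in set 1. The knockdown of RBPMS itself differed in the same test (1.82, adjusted p = 7.17e-06), with a log2 ratio of -2.79 in set 1 and -1.08 in set 2. With 1 library a group in set 1, this test takes the spread from replicates 2 and 3 of set 2 alone. With no filter on low counts EEF1D and EIF4A2 were not called.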

How the results depend on the processing

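The knockdown call count depended most on how the label sets were treated. Higher and lower counts were 13 and 3 with the replicate block, 19 and 9 with a covariate for the label set, 4 and 2 with replicates 2 and 3 summed, 27 and 13 in label set 2 alone (42.9% and 20.6%, all genes 20.5% and 21.7%), 2 and 1 with DESeq2, and 3 and 2 with limma on the authors' adjusted values (4.76% and 3.17%, all genes 6.39% and 7.92%). They were 0 and 0 with the other scalings, no filter, limma-voom and each library left out. With RB98# library totals gave 11 and 24 (18% and 39.3%, all genes 13.7% and 26.6%). Leaving out 1 library gave fewer calls in both directions for a DMSO library and more for an RB98# library. The median log2 change was then -0.047 to -0.0092 over the 61 genes and -0.0080 to 0.0041 over all genes. The RB98# libraries of the same number did not deviate together (r = -0.0802 over 9360 genes), so they share only a number, and a replicate block gave 13 and 13 (21.3% each, all genes 19.3% and 16.6%). For the difference between experiments the replicate block gave 7 and 10, label set 2 alone 10 and 20 (16.7% and 33.3%, all genes 24% and 23.9%), and left-out libraries 0 to 2 and 0 to 1.

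Some signs turned, none in a gene called by the unblocked fit or under the alternative in question, though EIF5A was called higher with the block. EIF4A1 was at -0.089 in label set 2 alone, EIF6 at 0.019 with summed replicates, and EIF3A with RB98# at -0.028 with library totals. Over left-out libraries the knockdown effect ran from -0.11 to 0.56 for EIF5A, -0.39 to 0.40 for EIF4A1, -0.31 to 0.0074 for EIF2AK2, -0.0093 to 0.043 for EIF3A and -0.35 to 0.23 for EIF6, and the RB98# effect from -0.050 to 0.0019 for EIF4A1 and -0.23 to 0.085 for EIF2AK3. Of 640 alternatives for 40 single genes of the knockdown, 497 kept the direction and the side of the threshold, 115 crossed into a call and 16 out of one. Of 500 for 50 genes with RB98#, 424 kept both, 3 gained a call and 70 lost it. The causes were not tested. With 2 libraries a group in the RB98# experiment, the loss of 1 leaves a lone library assumed to vary like the other group. Depth limits genes of low level, the lowest means being those of EIF5AL1 (4.23 CPM), EIF2S3B (5.66) and EEF1AKMT3 (6.24) with shCtrl and of EIF3CL (4.45), EEF1AKMT3 (6.67) and EIF5A2 (7.79) with DMSO.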
